A study of Mus musculus with 46 samples.

Results

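E286, E099, E080, E145 and E101 are 5 candidate cis-regulatory elements (cCREs) of the mouse Tfcp2l1 locus that lay at the bottom of a reporter assay of 232 cCREs from that locus, out of 423 cCREs in the Upstream assay of the study. They were chosen by a readout. When a cCRE was placed before a promoter, their mean boost index, the log2 ratio of a construct's activity to the median construct with the same oriented promoter, was the lowest of 169 ranked cCREs. The mean over constructs was −1.52 for E286 (12 constructs), −1.24 for E099 (15), −1.05 for E080 (6), −1.03 for E145 (7) and −1.01 for E101 (8). E101 was the last cCRE inside the choice, and E053, at −0.94, was the next one outside it. The 5 members occur in 1251 of the 55980 constructs of the Tfcp2l1 library.

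The study measured compatibility of cCREs and promoters with barcoded plasmids in E14TG2a cells, an established embryonic stem cell line of the mouse, in 2i+LIF, a medium that holds the cells in the naive state by blocking kinases and adding a cytokine. All samples used here share this line, this medium and nucleofection with the separate Tfcp2l1 Upstream library mix. The cDNA group, barcodes in reporter RNA taken 24 h after transfection, has 3 biological replicates, and the pDNA group, barcodes in the plasmid input, has 2 technical replicates. Activity is the deposited ratio of cDNA to pDNA for each biological replicate, on a linear scale with no stated unit point. No treatment or genotype was compared, so every comparison below is between constructs within the same transfections. The plasmids are transient, so these values describe fragments outside their chromosomal place, in 1 cell line.

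Promoters recruit the transcription machinery, and enhancers are stretches of DNA that raise the output of a promoter through bound transcription factors. Silencers are stretches that lower that output, through bound repressors. Tfcp2l1 itself encodes a transcription factor of the naive pluripotency network of mouse embryonic stem cells.

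All 5 members lie on chromosome 1 (mm10), and the start and end of each are 450 bp apart. E080 (chr1:118822227-118822677) lay outside gene spans, 11.4 kb from Gli2, which encodes a transcription factor of the Hedgehog pathway. E099 (chr1:119003803-119004253) and E101 (chr1:119014245-119014695) both lay within the span of Gli2. E145 (chr1:119265504-119265954) lay between genes, and its nearest protein-coding gene was Inhbb, a subunit of inhibins and activins, at a distance of 150 kb. E286 (chr1:120374776-120375226) also lay between genes, 31.6 kb from C1ql2, which encodes a secreted C1q-like protein. No other fragment of the library overlapped any of the 5. Whether E099 and E101 are exonic or intronic was not analysed here, nor were the letters of the 5 fragments.

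The partners that carry the clearest contrasts below include 3 promoter fragments whose RefSeq promoter windows are shown to identify them. P018 holds that of Ralb, a small GTPase of the Ras family, P024 that of Tmem177, a mitochondrial membrane protein, and P025 that of Cfap221, a protein of cilia and flagella. Each sequence is the 250 bases before the gene's start in GRCm38.p6, 5′ to 3′ on the strand of the gene, which is the minus strand for all 3. The labels do not relate the plus and minus orientation of a fragment in the assay to the strand of the genome or gene. Alone, the fragments were higher in plus than in minus orientation, at 6.52 and 1.04 (P018), 2.71 and 0.187 (P024) and 2.49 and 0.192 (P025). Capitals mark the GC box, searched as GGGCGG on either strand and so also as CCGCCC. It has 1 match each in the windows of Ralb and Cfap221 and 3 matches in that of Tmem177, and 32.7% of 32851 promoter windows of this length hold it.
Ralb (chr1:119504783-119505032): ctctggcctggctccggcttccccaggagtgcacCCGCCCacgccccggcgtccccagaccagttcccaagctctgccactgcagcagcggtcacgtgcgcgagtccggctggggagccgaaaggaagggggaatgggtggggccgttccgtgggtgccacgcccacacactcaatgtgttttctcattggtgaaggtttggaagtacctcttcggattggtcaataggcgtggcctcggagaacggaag
Tmem177 (chr1:119913184-119913433): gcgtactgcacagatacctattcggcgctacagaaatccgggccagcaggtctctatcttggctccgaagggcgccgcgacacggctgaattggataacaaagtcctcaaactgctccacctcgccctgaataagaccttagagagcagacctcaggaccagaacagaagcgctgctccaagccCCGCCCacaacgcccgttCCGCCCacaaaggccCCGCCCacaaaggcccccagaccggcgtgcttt
Cfap221 (chr1:119997233-119997482): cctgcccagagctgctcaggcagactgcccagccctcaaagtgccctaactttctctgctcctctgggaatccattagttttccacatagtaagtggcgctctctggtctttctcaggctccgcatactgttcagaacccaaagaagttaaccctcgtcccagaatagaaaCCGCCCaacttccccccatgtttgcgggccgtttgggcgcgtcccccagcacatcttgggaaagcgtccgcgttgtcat

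Before any comparison, constructs of the members were more often at the floor of the assay than others. Of the 1251 constructs, 267 (21.3%) had a replicate with an activity of 0, against 5180 of the 54729 other constructs of the locus (9.46%). Replicate 1 was at 0 in 223 of them, replicate 2 in 43 and replicate 3 in 65, an imbalance also present over the library (4300, 975 and 1321). The share was 29.4% (20 of 68) where a member stood before a promoter and 25.3% (19 of 75) where it stood after one. In pairs of cCREs it was 20.1% (108 of 538) with the member in the leading slot, where the table names the first fragment, and 21.1% (121 of 573) in the trailing slot, against 9.77% of all pairs. Constructs with a 0 were left out of the values below, so the lowest constructs of the members are missing from them more often than those of other cCREs. Barcode numbers and reads per construct were not analysed here, so the depth behind each ratio is unknown and a 0 has no upper limit.

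Alone, without a partner, all 5 members had low activity. E080 gave 0.00787, 0.0490 and 0.0197 in replicates 1 to 3 in plus orientation and 0.0293, 0.0137 and 0.0647 in minus orientation. E145 gave 0.0128, 0.0598 and 0.0259 in plus and 0.00579, 0.0477 and 0.0340 in minus orientation. These values lay below the median oriented cCRE of the same replicate, which was 0.0806, 0.101 and 0.105, in every replicate. E286 gave 0.0129, 0.0571 and 0.0942 in plus and 0.0176, 0.050 and 0.0463 in minus orientation. E099 was higher in minus orientation, at 0.0587, 0.0600 and 0.0523, than in plus orientation, at 0.0144, 0.0443 and 0.0286, and the replicates of the orientations did not overlap. E101 had the highest means of the 5, 0.0602 in plus and 0.0656 in minus orientation, with replicates at 0.0430, 0.0584 and 0.0870 in plus and 0.0433, 0.0763 and 0.0853 in minus orientation, still below the median in every replicate.

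Averaged over orientations and set against the median single cCRE of each replicate, all 5 members were lower in limma (Benjamini-Hochberg adjusted over 224 cCREs), where 33.9% of the cCREs were called lower and 37.9% higher. The log2 difference was −1.99 for E145 (95% interval −3.28 to −0.70, adjusted p = 0.0204), the 7th lowest of 224, and −1.98 for E080 (−2.51 to −1.44, adjusted p = 0.00163), the 8th. It was −1.33 for E286 (−2.40 to −0.27, adjusted p = 0.0356, rank 26), −1.29 for E099 (−1.70 to −0.88, adjusted p = 0.00249, rank 30) and −0.59 for E101 (−1.03 to −0.16, adjusted p = 0.0272, rank 70). Without replicate 2 the calls of E286 (adjusted p = 0.0924) and E101 (adjusted p = 0.108) were lost, and without the replicate block that of E101 (adjusted p = 0.0781). The table also lists a single construct named eempty, which the labels do not explain, at 0.161, 0.186 and 0.190. All 10 oriented members lay below it, as did 276 of the 420 oriented cCREs (65.7%).

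Placed before a promoter, the arrangement that chose them, the members gave 48 constructs without a 0, described here without a test. Of these, 46 lay below the promoter alone and 47 below the median construct of the promoter, with a median log2 difference from the promoter alone of −1.51. With the 19 constructs on active promoters, those whose median construct exceeded an activity of 0.25, the median was −1.05 and 17 lay below the promoter alone. With the 29 on weak promoters it was −1.99 and all 29 lay below. The median boost index was −0.80 on active and −1.21 on weak promoters. The share of all constructs in this arrangement that lay below the promoter alone is not given here. The median construct of a weak promoter lay below the promoter alone for P016(+), at 0.0503 against 0.0903. For P031(+) it lay above, at 0.0479 against 0.0378. The orientations differed between members, since E099 was measured only in minus and E080 and E145 only in plus orientation here.

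The promoter fragment P022 in plus orientation, from the span of Ptpn4, a protein tyrosine phosphatase gene, was measured after all 5 members and shows them side by side. Alone it gave 6.74, 7.28 and 7.93. After E286(-) it gave 2.99, 3.08 and 3.33, and after E145(+) 3.48, 3.73 and 4.69. After E080(+) it gave 3.82, 4.63 and 5.27, after E101(-) 4.18, 5.46 and 6.11, and after E099(-) 5.20, 5.58 and 5.50. Mean activities were 1.35-fold (E099) to 2.33-fold (E286) lower than this strong promoter alone. The median construct of P022(+) in this arrangement was at 6.61, itself below the promoter alone. Against that median the boost index ranged from −1.08 (E286) to −0.29 (E099). Such constructs chose the members, so these low values are a description and not separate support.

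The Cfap221 promoter fragment in minus orientation, P025(-), had a mean of 0.192 alone, against 2.49 in plus orientation. After E286(-), P025(-) gave 0.0248, 0.0150 and 0.0214, 9.61-fold lower and the lowest boost index of the 5, −3.66. After E099(-) it gave 0.00674, 0.0955 and 0.0702, where replicate 1 stood far below the other replicates. After E101(+), in contrast, the same promoter gave 0.189, 0.195 and 0.253, with a mean of 0.211, above the promoter alone. That mean was still below the median construct of P025(-), at 0.266, with a boost index of −0.26. E099(-) before P022(-) was the other construct above its promoter, at 0.599, 0.718 and 0.653 against a mean of 0.549 alone, with a boost index of 0.20. With the Ralb promoter in minus orientation, P018(-), whose mean alone was 1.04, E080(+) gave 0.340, 0.490 and 0.470, E099(-) gave 0.351, 0.508 and 0.295, and E101(-) gave 0.628, 0.496 and 0.703. The means were 2.43-fold, 2.78-fold and 1.73-fold lower than the promoter alone.

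Placed after a promoter, an arrangement the choice did not use, the members can be tested. Of 56 member constructs, 39 were lower than the promoter alone in limma (69.6%) and 2 were higher, where 42.6% of all 4720 such constructs were lower and 23.3% higher. The median log2 difference was −1.91 for the members and −0.85 over all constructs. The promoter alone is the same measurement for all constructs of a promoter, so the calls of a promoter share it. On promoters with an activity alone above 0.25, 21 of 23 member constructs were lower and none was higher, against 76.2% and 7.01% of all 1641, so most cCREs lowered an active promoter when placed after it. The median log2 difference was −4.20 for these 23 and −2.29 for the 1641, over different mixes of promoters, since most of the 23 were on P022 and P018. On weaker promoters, 18 of 33 were lower and 2 higher, against 24.7% and 31.9% of 3079.

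The deepest called drop was that of E099(+) after the Tmem177 promoter fragment, P024(+). The promoter alone gave 2.36, 2.57 and 3.26, and with E099 after it 0.00585, 0.0310 and 0.0339, a 148-fold lower mean (log2 difference −7.21, SE 0.70, adjusted p = 0.000176). The groups did not overlap. The median construct of P024(+) in this arrangement was itself low, at 0.343, and the log2 difference of E099(+) from it was −4.23. The Ralb promoter fragment P018(+), at 5.68, 6.57 and 7.43 alone, gave 0.0642, 0.148 and 0.126 with E286(+) after it, 61.3-fold lower (log2 difference −5.94, SE 0.35, adjusted p = 2.6e-05). In minus orientation E286 left that promoter at 0.357, 0.195 and 0.231, and E099 left it at 0.0762, 0.131 and 0.128 in plus and 0.0492, 0.261 and 0.148 in minus orientation. The median construct of this promoter in the same arrangement had an activity of 0.507, so the promoter was already far below its level alone with most cCREs, and all 4 constructs lay lower still.

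P022(+) again shows 4 members on 1 promoter. With E286(-) after it the activity was 0.182, 0.183 and 0.179, with E099(-) 0.172, 0.301 and 0.191, and with E145(-) 0.0414, 0.197 and 0.0625. With E101(-) it was 1.17, 0.927 and 0.900, above the median construct of 0.686 and above the replicates of the other members. The log2 difference from the promoter alone was −6.51 (SE 0.57, adjusted p = 0.000115) for E145, −5.33 (SE 0.17, adjusted p = 6.77e-06) for E286, −5.09 (SE 0.26, adjusted p = 1.84e-05) for E099 and −2.88 (SE 0.20, adjusted p = 4.22e-05) for E101. E080 was not measured there, and its lowest called construct was with P016(-), at 0.0273, 0.0457 and 0.0220 against a mean of 0.101 alone (log2 difference −1.75, SE 0.31, adjusted p = 0.00317).

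The weak P012(+) fragment, within the span of Tfcp2l1, had a mean of 0.116 alone. E099(+) brought it to 0.0255, 0.00450 and 0.00729 (log2 difference −3.62, adjusted p = 0.00281), E286(-) to 0.00224, 0.0186 and 0.0283 (−3.46, adjusted p = 0.0180), and E286(+) to 0.0809, 0.0247 and 0.0401 (−1.43, adjusted p = 0.0300). On the same P012(+), E101(-) (−3.11, adjusted p = 0.0724) and E145(-) (−2.02, adjusted p = 0.0942) did not pass the test. E099(-) gave 0, 0.220 and 0.0164 and was not tested. The median construct of P012(+) was at 0.0707. Values at this level vary several-fold between replicates. The 2 constructs called higher shared the P013(+) fragment, within the span of Gli2, which gave 0.196, 0.210 and 0.218 alone. With E099(-) after it P013(+) gave 0.508, 0.876 and 0.709 (log2 difference 1.71, SE 0.25, adjusted p = 0.00121), and with E101(-) 0.403, 0.397 and 0.932 (1.35, SE 0.37, adjusted p = 0.0186). Neither group overlapped the promoter alone. On the same promoter fragment in the other orientation, E101(-) was called lower, by −1.70 (adjusted p = 0.0480).

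Against the median construct of the promoter, 26 of the 56 constructs were lower and 3 higher in limma, where 16.2% of all constructs were lower and 34.2% higher. Summarised by cCRE, 2 of the 3 members with at least 5 usable constructs were lower, where 45.2% of 168 cCREs were lower and 36.3% higher. E099 was the 5th lowest of the 168, at −1.34 (replicates −1.27, −1.37 and −1.38, 95% interval −1.63 to −1.05, adjusted p = 2.44e-14, 23 constructs). E286 was the 6th lowest, at −1.18 (replicates −1.35, −1.19 and −0.99, interval −1.47 to −0.89, adjusted p = 7.76e-12, 18 constructs). E101 was near the middle, rank 77, at −0.29 (replicates −0.83, −0.22 and 0.19, interval −0.59 to 0.02, adjusted p = 0.0761, 8 constructs). The moderated SE was 0.15 for each of these 3, though the standard deviation over replicates was 0.06 for E099, 0.18 for E286 and 0.51 for E101. E080 had 3 and E145 had 4 usable constructs and were not ranked. With zeros kept and a pseudocount of 0.01, E145 entered at −2.01 (adjusted p = 5.69e-06).

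The shift differed between active and weak promoters for 2 of these 3 members, in opposite directions. The shift of E099 was −1.79 over 9 constructs with active promoters and −1.05 over 14 with weak ones, a difference of −0.74 (replicates −1.65, −0.25 and −0.33, adjusted p = 0.00164). Without replicate 1 that difference was −0.29 (adjusted p = 0.259). The shift of E101 was 0.48 over 3 constructs with active promoters, all on P022, and −0.75 over 5 with weak ones, a difference of 1.23 (replicates 2.32, 0.73 and 0.66, adjusted p = 1.38e-07). Without replicate 1 it was 0.69 (adjusted p = 0.00368). For E286 the difference was −0.18 (interval −0.61 to 0.25, adjusted p = 0.469). The moderated SE was 0.22 for all 3, though the standard deviation over replicates was 0.79 for E099, 0.94 for E101 and 0.10 for E286. These p-values therefore rest on a variance shared over cCREs, not on the spread of each member. Over all 151 cCREs tested, 36.4% had a lower and 20.5% a higher shift with active promoters. On promoters measured with both orientations of the member, the plus and the minus orientation of E286 and of E099 differed by 0.01 (interval −0.34 to 0.36, adjusted p = 0.968) and 0.18 (−0.42 to 0.78, adjusted p = 0.521) on the log2 scale, with plus higher, where 20.3% of 128 cCREs were called lower and 33.6% higher in plus orientation. With zeros kept and a pseudocount of 0.01, the difference of E286 turned to −0.82 (adjusted p = 0.0046), and 10 of its 28 constructs in this arrangement had a 0.

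In pairs with another cCRE, the members were tested against the partner alone in both slots. In the leading slot, 137 of 430 constructs were lower (31.9%) and 44 higher (10.2%), where 17.4% of all 39844 pairs were lower and 34% higher. In the trailing slot, 200 of 452 were lower (44.2%) and 42 higher (9.29%), where 25.2% of 40071 were lower and 35.3% higher. The median log2 difference was −0.76 for the members in the leading slot, against 0.12 over all pairs, and −1.07 in the trailing slot, against −0.00. On partners with an activity alone above 0.25, leading members were lower in 64 of 148 and higher in 5, where 26.5% of such pairs were lower and 28.7% higher. Trailing members on these were lower in 97 of 158 and higher in 12, against 47% and 25.2%. On weaker partners, leading members were lower in 73 of 282 and higher in 39, against 13.7% and 36.2%, and trailing members were lower in 103 of 294 and higher in 30, against 16.4% and 39.4%. Against the median construct of the partner, 132 leading and 151 trailing constructs were lower, where 15.2% and 18.4% of all were lower and 31.4% and 35.3% higher. The leading count depended on replicates 2 and 3, since 76 constructs were lower without replicate 2 (17.7%, against 11% of all) and 71 without replicate 3 (16.5%, against 9.91%). The trailing count was 126 without replicate 3 (27.9%, against 17%).

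In pairs of cCREs, against the median construct of the partner, all 5 were lower in limma in both slots, where 51% of 196 cCREs were lower and 35.7% higher in the leading slot, and 52.2% of 207 lower and 37.7% higher in the trailing slot. The median cCRE itself had a shift of −0.26 in the leading and −0.37 in the trailing slot. A lower call here means below 0, not below the usual cCRE. E080 was the 2nd lowest of 196 in the leading slot, at −1.49 (95% interval −1.81 to −1.18, adjusted p = 3.75e-05, 41 constructs), and E145 the 8th, at −1.34 (−1.53 to −1.15, adjusted p = 6.06e-06, 65 constructs). In the trailing slot E145 was the 6th lowest of 207, at −1.77 (−2.12 to −1.42, adjusted p = 2.95e-05, 38 constructs), and E080 the 15th, at −1.46 (−1.73 to −1.19, adjusted p = 2.38e-05, 23 constructs). These were also the 2 lowest members alone.

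E286, E099 and E101 ranked between 28.5% and 47.3% of the cCREs from the lowest. E286 had a shift of −0.70 in the leading slot (adjusted p = 0.000153, rank 59 of 196, 102 constructs) and −0.46 in the trailing slot (adjusted p = 0.00239, rank 98 of 207, 171 constructs). E099 had −0.51 (adjusted p = 0.000701, rank 81, with 136 of its constructs in minus orientation) and −0.97 (adjusted p = 4.3e-05, rank 59, 157 constructs). E101 had −0.58 (adjusted p = 0.000326, rank 72, 77 constructs) and −0.89 (adjusted p = 0.000279, rank 67, 63 constructs). The change of slot was itself tested, with 42.9% of 196 cCREs lower and 29.6% higher in the trailing slot. E099 was lower in the trailing slot by −0.46 (replicates −0.48, −0.43 and −0.47, adjusted p = 0.00171) and E286 was higher by 0.24 (replicates 0.19, 0.26 and 0.27, adjusted p = 0.0103). E286 lost its call without replicate 2 (adjusted p = 0.0507) or replicate 3 (adjusted p = 0.0621). Its difference pooled both orientations. From the leading to the trailing slot the mean shift of E286 went from −0.74 to −0.32 in minus, but from −0.49 to −0.68 in plus orientation. The difference was 0.04 for E080 (interval −0.44 to 0.51), −0.43 for E145 (−0.84 to −0.01) and −0.31 for E101 (−0.67 to 0.05), with adjusted p-values of 0.860, 0.0604 and 0.0930. E145 passed the test with zeros kept and a pseudocount of 0.01 (−0.48, adjusted p = 0.0344), and E101 without replicate 2 (−0.48, adjusted p = 0.0214). For E080 and E145, slot and orientation cannot be told apart, since nearly all their leading constructs were in plus and nearly all their trailing ones in minus orientation.

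On partners measured with both orientations of a member, 3 members could be compared, and E286 in plus orientation was lower than in minus orientation by −0.35 (replicates −0.34, −0.24 and −0.45, adjusted p = 0.0145, 66 oriented partners), while 30.3% of 178 cCREs were lower and 30.9% higher in plus orientation. Without replicate 1 or replicate 3 this call was lost (adjusted p = 0.0658 and 0.0851). The test pooled both slots. Over all its constructs in the leading slot, the mean shift of E286 was −0.49 in plus and −0.74 in minus orientation. In the trailing slot it was −0.68 in plus and −0.32 in minus orientation, the opposite direction. E099 differed by 0.15 (interval −0.10 to 0.41, adjusted p = 0.208, 57 partners) and E101 by 0.22 (−0.11 to 0.55, adjusted p = 0.176, 30 partners).

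Partners with high activity of their own show how far a member could lower an active fragment. E017, E060, E301 and E166 were taken as the strong cCREs of the locus. Alone, their orientations ranked between 402 and 420 from the lowest of 420 oriented cCREs. With a member in the leading slot, 4 of 30 constructs with these partners were lower than the partner alone and 1 was higher, where 11% of all 1560 such constructs were lower and 19.4% higher. The median log2 difference was −0.11 for the members and 0.07 over all cCREs. With a member in the trailing slot, 23 of 27 were lower and none higher, where 76.6% of 1533 were lower and 5.81% higher, with medians of −1.66 and −1.49. The share lowered by the members lay near that of all cCREs in both slots.

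E017 in minus orientation, at 31.3, 29.0 and 33.5 alone, illustrates both slots. With E145(+) in the leading slot it gave 28.6, 28.2 and 29.5, and with E099(-) 27.7, 25.6 and 27.7, neither passing the test (adjusted p = 0.609 and 0.366). With E145(-) in the trailing slot it gave 1.23, 1.35 and 1.30, a 24.2-fold lower mean (log2 difference −4.60, SE 0.18, adjusted p = 9.74e-06). With E099(+) it gave 1.53, 1.23 and 1.53, and with E286(-) 1.59, 1.57 and 1.48. All 6 trailing member constructs with E017 were lower, as were 318 of the 319 constructs of all cCREs, and the median log2 difference was −4.34 for the members and −3.19 for all. With E101(+) trailing, E017(-) gave 6.64, 4.78 and 5.61, above its median construct of 3.30, and with E101(-) it gave 2.78, 2.75 and 3.43, with a mean of 2.97 below that median. For E145 and E099, the orientation of the member also differed between the slots shown with E017(-). On E017(+), leading E099(+) was called lower (log2 difference −0.61, adjusted p = 0.0355) and leading E145(+) higher (0.72, adjusted p = 0.0236). The other leading members on E017(+) did not pass the test.

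With E060, an element within the span of Tfcp2l1, trailing members ranged from E080(+), where E060(-) gave 0.442, 0.514 and 0.593 against a mean of 7.34 alone (log2 difference −3.84, adjusted p = 2.19e-05), to E099(+), where it gave 5.58, 5.33 and 4.67 (−0.50, adjusted p = 0.0527). E099 was the member that left E060 highest, and E060(+) with E099(-) trailing gave 9.72, 12.4 and 7.47 against a median construct of 4.99. With all partners whose activity alone exceeded 0.25, E145 in the trailing slot was lower in 13 of 13 constructs, with differences from −5.50 to −2.20, where 47% of all 11562 such pairs were lower. E286 in the same slot was lower in 26 of 60 (43.3%) and higher in 9.

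Single constructs stood far above the rest of their member. A log2 difference above 3 from the partner alone was called in 11 of 430 leading and 7 of 452 trailing constructs (2.56% and 1.55%, against 11.8% and 13.7% of all pairs). The highest was E080(+) before E131(+), at 1.56, 2.36 and 2.53 against 0.0310, 0.0530 and 0.0513 for E131(+) alone (log2 difference 5.59, SE 0.32, adjusted p = 5.04e-05). E145(-) after E086(+) gave 1.05, 1.90 and 2.33 against 0.0785, 0.0917 and 0.0740 alone (4.37, SE 0.33, adjusted p = 9.74e-05). These replicates lay far apart from those of the partner, without overlap.

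For E286 and the weak cCRE E066, a pair singled out after its values were seen, all 8 combinations of order and orientation were measured. E286(-) before E066(-) gave 1.03, 0.985 and 1.00, and E286(-) after E066(+) gave 2.22, 1.55 and 0.775, log2 differences of 3.67 (adjusted p = 5.86e-05) and 4.86 (adjusted p = 0.000199). None of the other combinations was high. E286(-) before E066(+) gave 0.00434, 0.0206 and 0.0258, E286(-) after E066(-) gave 0.0239, 0.0409 and 0.0542, and the combinations with E286(+) had no replicate above 0.0812. For the other highest constructs, other orientations are given here for only some pairs. In these, 1 combination was high and another, differing in the orientation of 1 fragment, was low. E101(-) before E103(-) gave 1.28, 1.30 and 1.39, while E101(+) before the same fragment gave 0, 0.00986 and 0.0360, and E099(-) after E086(-) gave 0.396, 0.526 and 0.815, while after E086(+) it gave 0, 0.0191 and 0.0172. The number of barcoded plasmids behind each of these constructs was not analysed here, and its part in these values was not tested.

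Members were rarely paired with each other. Only 3 constructs held 2 of the 5, 1 of them with a replicate at 0, and neither of the other constructs passed the test against the trailing member alone, where 17.4% of all pairs were lower.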

How the data were processed

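Activities of the Tfcp2l1 Upstream library were used as the authors deposited them, as a linear ratio of cDNA to pDNA barcodes for each biological replicate, per the file headers and the labels. The deposited boost index is a log2 value, and it was recomputed from the activities (tolerance 0.001). Bowtie2 and mm10 are named in the submitters' processing notes. Barcode counting, barcode filters and scaling are not given in the sources used here. Columns were matched to samples by locus and replicate number, and 15 other activity columns were not used.

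Activities were log2 transformed. A construct listed at 0 in any replicate did not enter. Each construct was compared with its oriented partner alone, 3 replicate values against 3, with limma 3.58.1 in R 4.3.3, moderated variances and Benjamini-Hochberg adjustment over the whole class of construct at 0.05. Shifts per cCRE are means over its constructs of the log2 difference, within a replicate, from the median construct of the oriented partner, which needed at least 10 constructs. A shift needed 5 constructs, and each side of a difference 3. These shifts were tested against 0 in limma, which makes the replicate number a block. The numbers mark the transfection that all constructs of a replicate share. Partners above an activity of 0.25 were called active. Named constructs are the lowest and the highest called construct of each member and class, together with those of partners measured with several members or of high activity. The members and lists were chosen with earlier results of these data known. Since every transfection drew on 1 plasmid pool, p-values measure the spread between transfections and not that between plasmids. Moderation drew each variance towards a value shared over all rows, so the p-value of a cCRE does not rest on its own spread alone. Alternatives were pseudocounts of 0.01 and 0.05 with zeros kept, another baseline, active partners alone, orientations apart, medians, the replicate block and each replicate left out. The steps were tested on simulated data with log2 changes of 2. Changed constructs were recovered in 63.5% after promoters, 30% in the leading slot and 28% in the trailing slot, and changed shifts of cCREs in 100%. False calls made up 1.64% to 7.97% of the calls, so some simulated tests lay above the 0.05 threshold. The simulation drew separate noise for each construct and its partner, whereas in the data all constructs of an oriented partner share its values. It changed 200 constructs or 40 cCREs per class, fewer than were called in the data. These shares therefore do not give the error rates of the tests on the data. Python 3.11.15, numpy 2.4.6 and pandas 2.3.3 were used. Sequence was used only for the promoter windows and their GC boxes, and the letters of the members were not analysed here.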

Additional observations from a re-analysis of the deposited data

Results flagged for a closer look

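Values that differed between groups of partners, slots or orientations by a test of the difference itself (limma, Benjamini-Hochberg) are given here as values. The shift of E099 after active rather than weak promoters differed by −0.74 (adjusted p = 0.00164), and that of E101 by 1.23 (adjusted p = 1.38e-07), in the opposite direction. In pairs of cCREs the shift in the trailing slot minus that in the leading slot was 0.24 for E286 (adjusted p = 0.0103) and −0.46 for E099 (adjusted p = 0.00171). The plus orientation of E286 minus its minus orientation in such pairs was −0.35 (adjusted p = 0.0145). Both values of E286 in pairs were pooled, over orientations or over slots, and its mean shifts differed in direction between those.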

How the results depend on the processing

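Under every alternative run, the share of member constructs lower than the partner alone stayed above that of all constructs, but counts moved. With active partners tested on their own, lower calls were 23 of 23 after promoters (79.3% of all), 76 of 148 for leading members (31.3%) and 63.9% of 158, about 1.0e+02 constructs, for trailing members (50.4%). Zeros kept with a pseudocount of 0.05 gave 218 lower of 538 leading constructs (22.8% of all). The replicate block gave 37 lower after promoters, 123 leading and 204 trailing, against 39, 137 and 200, so it moved no count by over 1.5 times. Leaving out 1 replicate gave 26 to 34 lower after promoters, 71 to 114 leading and 126 to 178 trailing. It left 3 to 5 members lower alone, 1 to 2 members with a difference between active and weak promoters, 1 to 2 with a difference between slots and 0 to 1 with a difference between orientations in pairs. Shifts from the median construct of the partner gave 5 lower members in each slot and 2 after promoters whichever replicate was left out. Their size depended on the handling of low values. With zeros kept and a pseudocount of 0.05, the shifts after promoters were −0.66 for E099 and −0.80 for E286, against −1.34 and −1.18. In pairs that of E080 was −0.86 in the leading slot, against −1.49, and that of E145 −1.07 in the trailing slot, against −1.77. In minus orientation only, 3 of 3 measurable members were lower in the leading slot, and in plus orientation only, 3 of 3 in the trailing slot, where fewer members had enough constructs. With zeros kept and a pseudocount of 0.01, 1 member differed between orientations after promoters, since E286 turned from 0.01 to −0.82 (adjusted p = 0.0046). The cause was not tested, as constructs with a 0 entered and all activities were raised at the same time. With the partner alone as baseline, the shift of E101 after promoters was −1.53 (adjusted p = 7.98e-06). The deposited ratios carry no depth, so their counting error could not be given.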
